A study of Mus musculus with 24 samples.

Results

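The comparison was of heterozygous and control mice in the cerebellum at 5 months of age, across every gene with enough reads to be tested. It was chosen by age and tissue alone and covers 6 of the 24 libraries of the series. The 3 control mice carried the numbers 7, 9 and 11 and the 3 heterozygous mice the numbers 8, 10 and 12, with 1 library per mouse. The study made mice that produce poly-PR, a protein of repeated proline and arginine translated from the C9orf72 repeat that causes ALS, a motor neuron disease, and FTD, a dementia of the frontal and temporal lobes. A construct of GFP joined to 28 codon-altered repeats, which makes no GGGGCC repeat RNA, was placed in the Rosa26 locus behind a floxed stop. Thy1-Cre, which is active in neurons, switched it on. The labels call the groups "WT" and "GFP-PR28 heterozygote", on a C57BL/6 background.

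The controls were littermates that carried the floxed construct without Thy1-Cre. Cre was present in heterozygotes alone, so effects of Cre and of poly-PR cannot be told apart. The authors saw GFP-PR28 in the cerebellum mostly in the Purkinje cell layer. The count table holds mouse genes alone, so the level of the transgene was not analysed here. Bulk RNA was measured, in which fewer cells of a type and less RNA per cell cannot be told apart.

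Purkinje cells are the output neurons of the cerebellar cortex, and they receive input from granule cells, climbing fibres and local interneurons. Microglia and astrocytes, including Bergmann glia, respond to damaged neurons with changes in phagocytic, complement and antigen presentation genes. Poly-PR enters the nucleus and the nucleolus, binds ribosomes and slows translation in cells, a process that can engage the integrated stress response through the transcription factor ATF4.

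The libraries were of similar depth and had the markers of cerebellum. Reads counted on genes numbered 14974504, 15931683 and 16266434 in control mice 7, 9 and 11, and 13980415, 15278223 and 16327811 in heterozygous mice 8, 10 and 12. Expression is given in CPM, counts scaled by normalized library size, and values stand in that order of mice throughout. Itpr1, the calcium release channel that Purkinje cells make in bulk, was at 3863, 3858 and 3985 CPM in controls and 3864, 3969 and 4053 CPM in heterozygotes. Its values overlapped between the groups, and at 398 CPM per kilobase of transcript it was among the most abundant Purkinje markers. Granule cells were marked by Cbln3, a secreted synaptic protein, at 1443, 1559.5 and 1469 CPM in controls and 1419, 1525 and 1589 CPM in heterozygotes, again with overlap. Slc18a3, the acetylcholine transporter of brainstem motor neurons, had 0 counts in all 6 libraries. The Y-linked gene Eif2s3y was expressed in every mouse (81.9, 79.7 and 80.6 against 88.0, 79.6 and 84.3 CPM).

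With all 6 mice more genes were called lower than higher, and the genes that fell were longer and more abundant. A call needed an adjusted p below 0.05 together with a log2 fold change (heterozygous over control) larger than 0.2 in either direction. Of 16481 genes tested, 391 were called higher (2.37%) and 448 lower (2.72%) in heterozygotes, where the median log2 fold change over all genes tested was 0.01. Transcripts of the genes called higher had a median length of 2.87 kb, against 4.63 kb for those called lower and 3.21 kb for all tested. Their median level in controls was 18.3 CPM, against 86.0 CPM for genes called lower and 20.9 CPM for all tested. Median sizes of change were 0.43 on the log2 scale among genes called higher and 0.30 among genes called lower. Rises above 1 numbered 52 and falls below −1 numbered 13. Protein-coding genes made up 369 of the 391 and 423 of the 448.

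Over all genes, the values of the 3 heterozygotes lay wholly above those of the 3 controls in 1983 genes (12%) and wholly below in 2106 (12.8%). Over all genes, each library's deviation from the mean of the 6 correlated with transcript length at 0.119, 0.0933 and 0.0817 (Spearman) in controls and at −0.142, −0.0819 and −0.109 in heterozygotes. The sign split by genotype, and the cause of this trend was not tested. Offsets for transcript length and GC content gave 308 genes called higher and 519 lower, and 285 of the 391 and 389 of the 448 genes kept their call. The calls rested on which mice were included. Without control mouse 11, 163 genes were called higher and 270 lower. Without heterozygous mouse 12 the counts were 221 and 329, and without control mouse 9 they were 222 and 355. Called in all 6 fits that leave out 1 mouse were 112 of the 391 higher and 191 of the 448 lower genes. When the 12 cerebellum libraries of 2 and 5 months were fitted together, named the 12-library fit from here on, 104 genes were called higher and 121 lower. DESeq2 called 241 higher and 398 lower, and an edgeR fit without the filter on low counts, where more rose than fell, called 591 higher and 568 lower. An annotated gene on the opposite strand overlaps 151 of the 391 and 226 of the 448, against 7514 of the 16481. The strand setting of the counting is not known, so counts of such genes are uncertain.

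**Figure D1:**
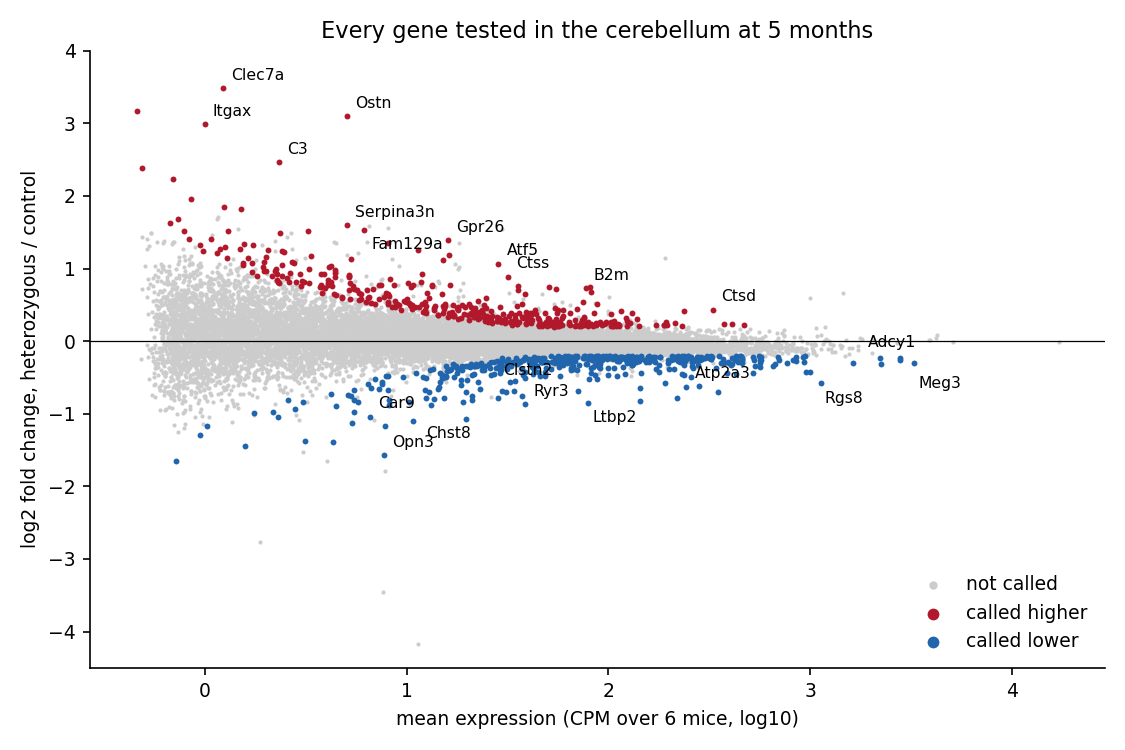
Log2 fold change (heterozygous over control, n = 3 mice per group) against mean expression (CPM over 6 mice, log10 axis) of every gene tested at 5 months, 1 point per gene. Red points are the 391 genes called higher, which spread to large changes at low expression, and blue points are the 448 called lower, which reach the most abundant genes.

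Some antigen presentation genes were called higher, and none of those tested lower. The light chain that all MHC class I molecules share rose in every heterozygote, as did a classical heavy chain. Of 11 genes of MHC class I presentation tested, 4 were called higher (36.4%, against 2.37% of all genes) and 0 lower, and all 11 had positive log2 fold changes with a median of 0.55. Without control mouse 11 or heterozygous mouse 12, 2 were called higher, and 2 in the 12-library fit. The highest counts were 6 among fits without 1 mouse and 7 over all alternatives. B2m (ENSMUSG00000060802, chromosome 2, 122147686 to 122153083 on GRCm38), the light chain, was at 53.4, 58.5 and 62.2 CPM in controls and 96.0, 90.8 and 102 CPM in heterozygotes. Every heterozygote was well above every control and the groups did not overlap (log2 fold change 0.73, standard error 0.06, adjusted p = 3.05e-07). H2-K1, a heavy chain that carries peptides to the cell surface, was at 18.4, 19.8 and 16.5 CPM in controls and 25.4, 23.8 and 30.7 CPM in heterozygotes. The highest value was that of heterozygous mouse 12 and all 3 controls lay lower (log2 fold change 0.55, standard error 0.10, adjusted p = 0.00248). Psmb10, a catalytic subunit of the immunoproteasome, was at 9.35, 11.1 and 9.23 CPM in controls and 12.6, 14.5 and 15 CPM in heterozygotes. The groups did not overlap (log2 fold change 0.51, standard error 0.12, adjusted p = 0.0129), but the call was lost without control mouse 7 or 11 or heterozygous mouse 10 or 12. The adjusted p was 0.0851 without control mouse 11, and 0.00221 to 0.110 over all alternatives. The summed level of the list was 257, 263 and 269.9 CPM in controls and 307, 316 and 371 CPM in heterozygotes, with heterozygous mouse 12 highest and B2m the most abundant member per kilobase.

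C1qb, C1qc and C3 were called higher, and no complement gene tested was called lower. C1q, which tags debris and synapses for uptake, is made of 3 chains, and C3 is the component on which the complement pathways meet. Of 14 complement genes tested, 5 were called higher (35.7%, against 2.37% of all genes) and 0 lower, and all 14 had positive log2 fold changes with a median of 0.53. Without control mouse 9 or control mouse 11, 3 were called, and 3 in the 12-library fit. C3 was at 0.948, 0.703 and 0.499 CPM in controls and 3.46, 2.48 and 5.88 CPM in heterozygotes. Levels were low, heterozygous mouse 12 was highest and heterozygous mouse 10 lowest of the 3, and the groups did not overlap (log2 fold change 2.46, standard error 0.35, adjusted p = 0.000518). C1qc was at 9.82, 10.2 and 9.42 CPM in controls and 17.3, 12.97 and 20.03 CPM in heterozygotes. All heterozygotes exceeded all controls, with the same order among the heterozygotes (log2 fold change 0.78, standard error 0.14, adjusted p = 0.00206). C1qb, the B chain, was at 12.5, 13.7 and 10.2 CPM in controls and 20.2, 17.1 and 25.0 CPM in heterozygotes. The highest and lowest values were those of heterozygous mouse 12 and control mouse 11 (log2 fold change 0.78, standard error 0.14, adjusted p = 0.00470), while the adjusted p was 0.0519 in the 12-library fit and 1.46e-10 to 0.0519 over all alternatives. C3ar1, the receptor for the C3a fragment, was at 1.42, 1.02 and 1.06 CPM in controls and 2.54, 1.95 and 2.28 CPM in heterozygotes. Its groups were apart, but its call (adjusted p = 0.0399) was lost without any 1 mouse, with 0.149 the highest adjusted p of these, without control mouse 11, and 0.0289 to 0.165 over all alternatives. Summed complement levels were 127, 126 and 117 CPM in controls and 187, 162 and 245 CPM in heterozygotes, and C1qa, which was not called, was the most abundant member per kilobase.

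Among called genes of the MHC class I and complement lists, the 3 promoters with a match are shown for the places where factors of interferon signalling and of microglia could bind. Bases run from 250 before to 50 after the transcription start, 5′ to 3′ on the strand of the gene, from RefSeq on GRCm38.p6. Capitals mark matches, on either strand, to TTTCNNTTT (the core of the interferon-stimulated response element) or GAGGAAGT (bound by PU.1, the factor of myeloid cells). A match describes the sequence and is no evidence of binding. B2m has a match to TTTCNNTTT on the minus strand that starts 138 bases before the transcription start (chromosome 2, 122147437 to 122147736, plus strand). C1qc has a match to GAGGAAGT, 195 bases before the start (chromosome 4, 136892865 to 136893164, minus strand), and C3ar1 a match to TTTCNNTTT, 210 bases before it (chromosome 6, 122856108 to 122856407, minus strand). Among 32851 mouse promoters, 10.6% hold TTTCNNTTT and 3.20% hold GAGGAAGT. Of the 4 called MHC class I genes 1 had the interferon element and 0 the PU.1 site, and of 4 called complement genes with a RefSeq promoter 1 had the interferon element and 1 the PU.1 site.
B2m: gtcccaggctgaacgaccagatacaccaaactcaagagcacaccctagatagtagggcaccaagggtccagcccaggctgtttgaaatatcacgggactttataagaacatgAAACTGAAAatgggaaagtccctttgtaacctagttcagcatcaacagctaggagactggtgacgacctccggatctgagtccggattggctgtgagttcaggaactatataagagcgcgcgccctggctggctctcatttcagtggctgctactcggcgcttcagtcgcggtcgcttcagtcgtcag
C1qc: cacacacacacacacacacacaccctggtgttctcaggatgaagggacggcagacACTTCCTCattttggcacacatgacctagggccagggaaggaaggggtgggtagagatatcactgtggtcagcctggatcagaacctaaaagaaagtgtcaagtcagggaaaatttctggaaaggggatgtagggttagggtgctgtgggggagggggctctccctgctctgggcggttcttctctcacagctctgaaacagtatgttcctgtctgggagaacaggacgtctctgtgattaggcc
C3ar1: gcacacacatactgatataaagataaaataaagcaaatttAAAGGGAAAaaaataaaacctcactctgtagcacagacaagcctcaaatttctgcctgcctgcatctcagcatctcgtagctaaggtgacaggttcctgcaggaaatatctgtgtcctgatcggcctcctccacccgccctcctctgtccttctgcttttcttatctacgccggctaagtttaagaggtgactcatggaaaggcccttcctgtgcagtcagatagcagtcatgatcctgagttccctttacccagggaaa

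Microglial genes were called higher and never lower, some genes of resting microglia among them. The lists hold genes that microglia switch on around damaged neurons and genes that mark microglia in healthy tissue. Of 19 genes of the disease-associated programme tested, 10 were called higher (52.6%, against 2.37% of all genes) and 0 lower (median log2 fold change 0.35). Without control mouse 11 or heterozygous mouse 12, 6 were called, and 6 in the 12-library fit. Of 11 homeostatic microglial markers tested, 3 were called higher (27.3%) and 0 lower, and all 11 were positive (median 0.36). Csf1r, the receptor that keeps microglia alive, was at 31.6, 29.0 and 30.5 CPM in controls and 40.0, 36.2 and 40.4 CPM in heterozygotes. Heterozygous mouse 10 was lowest of its group and still above every control (log2 fold change 0.36, standard error 0.07, adjusted p = 0.00392). Fcrls, an Fc receptor-like protein of microglia, was at 3.05, 2.43 and 2.68 CPM in controls and 6.71, 3.71 and 6.24 CPM in heterozygotes. Its heterozygous values lay above all controls, mouse 8 highest (log2 fold change 1.03, standard error 0.22, adjusted p = 0.00695). The summed level of the homeostatic list, with Aif1, which had too few reads to be tested, was 135, 138 and 140.3 CPM in controls and 181, 162 and 186 CPM in heterozygotes. Whether more microglia or more RNA per microglial cell lies behind these values was not tested.

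Some lysosomal and phagocytic genes were called higher, and none of those tested lower. Of 15 genes tested, 6 were called higher (40%, against 2.37% of all genes) and 0 lower, with a median log2 fold change of 0.20. Without control mouse 9, 2 were called, 3 without control mouse 11 or heterozygous mouse 12, 3 with DESeq2, 3 with offsets for length and GC content, and 2 in the 12-library fit. Ctss, a protease that trims the invariant chain of MHC class II, was at 22.4, 21.4 and 23.1 CPM in controls and 41.7, 35.4 and 46.8 CPM in heterozygotes. Every heterozygote was far above every control (log2 fold change 0.89, standard error 0.09, adjusted p = 7.38e-06). Mpeg1, a pore-forming protein of macrophages, was at 10.5, 9.91 and 9.42 CPM in controls and 24.2, 16.0 and 27.3 CPM in heterozygotes. The groups were wide apart and heterozygous mouse 10 was lowest of its group (log2 fold change 1.18, standard error 0.19, adjusted p = 0.00740), but the adjusted p was 0.0599 without control mouse 9 and 0.0599 without control mouse 11, and 2.34e-23 to 0.0599 over all alternatives. Lyz2, the lysozyme of myeloid cells, was outside the list and named for the size of its change, at 6.10, 7.80 and 6.24 CPM in controls and 15.3, 11.9 and 20.8 CPM in heterozygotes. Heterozygous mouse 12 was highest and no control reached any heterozygote (log2 fold change 1.26, standard error 0.20, adjusted p = 0.00336). Lamp1, the most abundant lysosomal gene of the list per kilobase, was at 366, 367 and 364 CPM in controls and 374, 369 and 347 CPM in heterozygotes. Its groups overlapped (log2 fold change −0.01, standard error 0.04, adjusted p = 0.933). Ctsd, a lysosomal protease on the disease-associated list, was at 295, 268 and 279 CPM in controls and 379, 338 and 422 CPM in heterozygotes. No control reached any heterozygote (log2 fold change 0.44, standard error 0.08, adjusted p = 0.0146). The adjusted p was 0.105 without heterozygous mouse 8, 0.0584 without control mouse 11 and 1.44e-19 to 0.105 over all alternatives. Itgax, the integrin CD11c on the same list, stood at 6, 1 and 3 counts in controls and 31, 11 and 40 counts in heterozygotes, too few in controls for a fold change (adjusted p = 0.00477).

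Interferon-stimulated genes were not called in the edgeR fit, and their values turned on single mice. These genes are switched on by type I interferon. With edgeR 0 of 16 were called and 3 had an unadjusted p under 0.05, although all 16 had positive log2 fold changes with a median of 0.97, which came to 0.27 without heterozygous mouse 12. DESeq2 called 1, edgeR without the filter on low counts 5, and edgeR called 4 without heterozygous mouse 10 and 1 without heterozygous mouse 8 or heterozygous mouse 12. With offsets for length and GC content 1 was called. Summed levels were 221, 267 and 218 CPM in controls and 276, 243 and 484 CPM in heterozygotes. Heterozygous mouse 12 stood far above the rest, and control mouse 9 was above heterozygous mouse 10. Stat2, a transcription factor of the pathway and the most abundant member per kilobase, was at 113, 129 and 124 CPM in controls and 133, 129 and 170.1 CPM in heterozygotes. Heterozygous mouse 12 was high and heterozygous mouse 10 just above control mouse 9 (log2 fold change 0.24, standard error 0.12, adjusted p = 0.363).

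Among reactive astrocyte genes 1 was called. Of 11 tested, 1 was called higher (9.09%, against 2.37% of all genes) and 0 lower, while all 11 had positive log2 fold changes (median 0.53, and 0.32 without heterozygous mouse 12). Without heterozygous mouse 10, 3 were called, 2 without control mouse 9, 4 without the filter on low counts, 2 with DESeq2 and 2 in the 12-library fit. Serpina3n, a secreted protease inhibitor, was at 2.10, 2.62 and 2.81 CPM in controls and 7.06, 5.54 and 10.2 CPM in heterozygotes. Heterozygous mouse 12 was highest, and the lowest heterozygote was above the highest control (log2 fold change 1.6, standard error 0.22, adjusted p = 0.000228). The summed level of the list was 317, 318 and 318 CPM in controls and 499.6, 428 and 529 CPM in heterozygotes, and Gfap, the filament of astrocytes, was the most abundant member per kilobase. Of 11 general astrocyte and Bergmann glia markers tested, 2 were called higher (18.2%) and 0 lower, 5 had positive log2 fold changes, and the median was −0.03. Aqp4, the water channel of astrocyte endfeet, was at 341, 365 and 323 CPM in controls and 416, 387 and 406 CPM in heterozygotes. Its groups did not overlap (log2 fold change 0.23, standard error 0.05, adjusted p = 0.00342), and without control mouse 11, which left 1 call in the list as leaving out heterozygous mouse 12 did, its adjusted p was 0.0523 (7.09e-06 to 0.0971 over all alternatives). Gdf10, a growth factor of Bergmann glia, was at 174, 182 and 184 CPM in controls and 201, 212 and 219 CPM in heterozygotes. All heterozygotes were above all controls (log2 fold change 0.23, standard error 0.04, adjusted p = 0.00312), though without heterozygous mouse 12 the call was lost, as its log2 fold change of 0.198 was inside the threshold. Over all alternatives, 0 to 3 of these 11 markers were called higher. Glul, the glutamine synthetase of astrocytes, was at 1288, 1197 and 1339.7 CPM in controls and 1193, 1194 and 1145 CPM in heterozygotes and was not called (log2 fold change −0.11, standard error 0.04, adjusted p = 0.123).

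**Figure D2:**
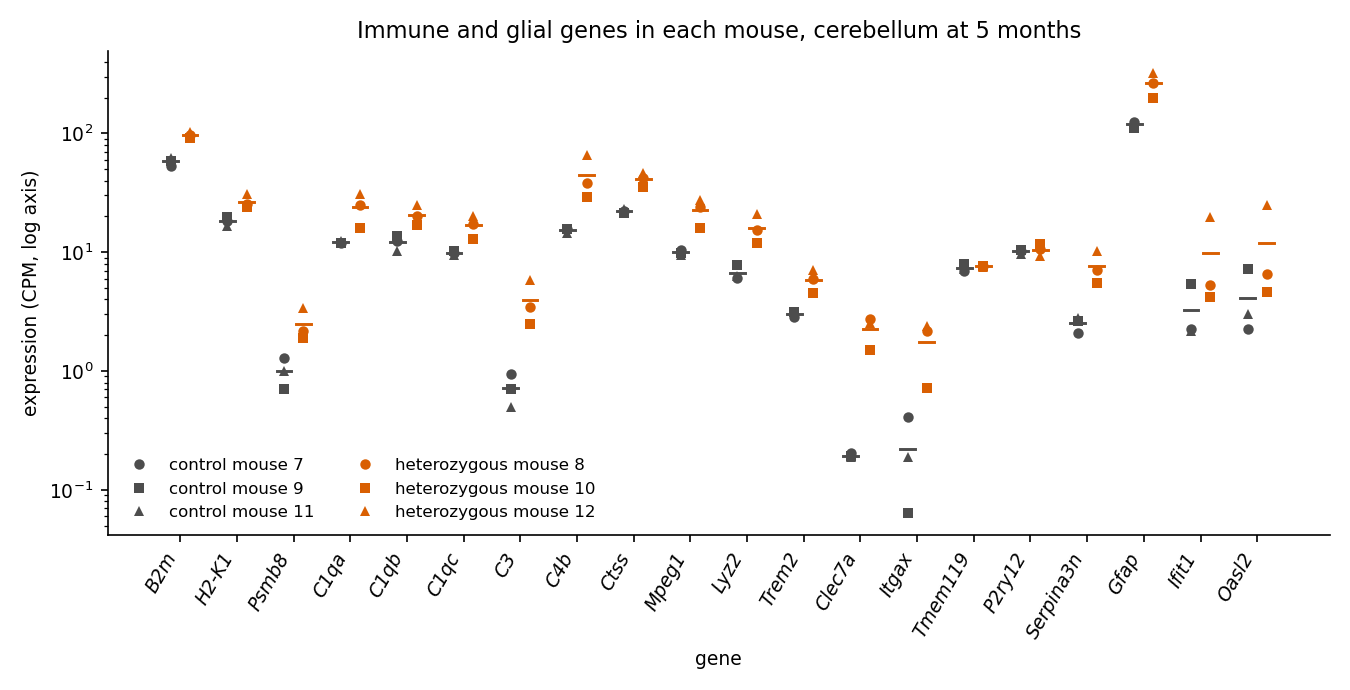
Expression (CPM, log axis) of antigen presentation, complement, microglial, astrocyte and interferon genes in each of 3 control (grey) and 3 heterozygous (orange) mice, 1 point per mouse with bars at group means. Heterozygous mouse 12 is highest in most genes, as in B2m at 102 CPM against 62.2 CPM in the highest control, and the interferon genes drawn were not called.

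Atf4 and several of the genes it drives rose. ATF4 is the transcription factor of the response, translated when initiation slows, and it drives genes of amino acid supply and of cell death. Of 19 ATF4-linked genes tested, 7 were called higher (36.8%, against 2.37% of all genes) and 0 lower, and 18 had positive log2 fold changes (median 0.32). Without control mouse 7, 4 were called, and 4 in the 12-library fit. Atf5, a factor of the same family, was at 17.1, 18.8 and 19.0 CPM in controls and 39.9, 34.5 and 40.9 CPM in heterozygotes. Every heterozygote was far above every control (log2 fold change 1.07, standard error 0.08, adjusted p = 8.79e-08). Atf4 itself was at 110.0, 121 and 109.6 CPM in controls and 149, 147 and 151 CPM in heterozygotes. The heterozygotes were closely grouped above all controls (log2 fold change 0.39, standard error 0.05, adjusted p = 3.61e-05). Asns, which makes asparagine, was at 57.2, 60.8 and 59.5 CPM in controls and 86.8, 74.9 and 79.2 CPM in heterozygotes. All heterozygotes lay above all controls, mouse 8 highest (log2 fold change 0.44, standard error 0.06, adjusted p = 9.69e-05). Chac1, which degrades glutathione, was at 2.85, 4.48 and 2.56 CPM in controls and 7.77, 5.67 and 8.28 CPM in heterozygotes. Control mouse 9 came closest to the heterozygotes without reaching them (log2 fold change 1.13, standard error 0.21, adjusted p = 0.00269). Atf3, a stress-induced factor, was at 0.677, 0.703 and 0.811 CPM in controls and 1.27, 1.56 and 2.52 CPM in heterozygotes. The heterozygotes were above all controls, mouse 12 most (log2 fold change 1.29, standard error 0.34, adjusted p = 0.0243). The call was lost without control mouse 7, 9 or 11 or heterozygous mouse 12. Without mouse 12 the adjusted p was 0.182, and it was 0.00593 to 0.182 over all alternatives.

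The promoters of Asns, Chac1 and Atf3 were looked at after their values were seen, for the site that ATF4 binds together with C/EBP factors. Capitals mark matches to TGATGNAA, which 3.97% of all promoters hold, and the extent, build, direction and source are as given for B2m. Of 7 called ATF4-linked genes 3 had a match and 2 had a match to TTTCNNTTT. The match in Asns lies on the plus strand and starts 23 bases before the start (chromosome 6, 7693160 to 7693459, minus strand). Those in Chac1 (193 bases before, chromosome 2, 119350992 to 119351291, plus strand) and Atf3 (110 bases before, chromosome 1, 191183284 to 191183583, minus strand) lie on the minus strand. The matches describe sequence alone.
Asns: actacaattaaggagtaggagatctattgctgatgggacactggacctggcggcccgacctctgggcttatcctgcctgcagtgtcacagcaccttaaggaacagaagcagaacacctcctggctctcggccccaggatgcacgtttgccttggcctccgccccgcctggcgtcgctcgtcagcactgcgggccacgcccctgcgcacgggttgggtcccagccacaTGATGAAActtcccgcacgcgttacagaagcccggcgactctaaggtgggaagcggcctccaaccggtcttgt
Chac1: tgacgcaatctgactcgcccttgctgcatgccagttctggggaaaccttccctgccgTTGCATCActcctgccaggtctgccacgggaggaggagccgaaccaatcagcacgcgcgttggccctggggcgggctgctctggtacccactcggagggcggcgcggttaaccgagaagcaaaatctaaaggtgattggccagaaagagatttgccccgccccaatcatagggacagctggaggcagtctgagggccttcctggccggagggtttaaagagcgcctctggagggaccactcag
Atf3: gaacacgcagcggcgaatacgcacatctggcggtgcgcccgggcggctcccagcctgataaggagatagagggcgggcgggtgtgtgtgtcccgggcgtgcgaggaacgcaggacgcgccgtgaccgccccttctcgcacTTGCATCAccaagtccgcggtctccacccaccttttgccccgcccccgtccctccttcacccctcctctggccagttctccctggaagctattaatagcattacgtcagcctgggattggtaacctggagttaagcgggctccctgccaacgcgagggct

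Of other stress programmes, p53 targets had calls and chaperones of the endoplasmic reticulum none with all 6 mice in edgeR. The chaperones, induced by unfolded protein, were not called in either direction (0 of 12 with edgeR, 3 with an unadjusted p under 0.05, 1 lower with DESeq2, 3 lower without the filter), and 11 had negative log2 fold changes with a median of −0.18. Without heterozygous mouse 8, 4 were called lower, and 1 without heterozygous mouse 12. Calr, a calcium-binding chaperone and the most abundant of them per kilobase, was at 327, 294 and 307 CPM in controls and 284, 283 and 219 CPM in heterozygotes. Heterozygous mouse 12 was lowest and the groups did not overlap (log2 fold change −0.24, standard error 0.12, adjusted p = 0.349). Among 13 p53 targets, 3 were called higher (23.1%, against 2.37% of all genes) and 1 lower (7.69%, against 2.72%, median 0.04), 1 higher without control mouse 9, and 0 in either direction in the 12-library fit. Aen, a nuclease of the p53 response, was at 20.1, 20.6 and 20.03 CPM in controls and 28.5, 27.2 and 25.9 CPM in heterozygotes. All heterozygotes exceeded all controls (log2 fold change 0.42, standard error 0.08, adjusted p = 0.00233), while the adjusted p of the 12-library fit was 0.0511 (0.000112 to 0.0511 over all alternatives). Zmat3, an RNA-binding p53 target, was at 94.9, 88.8 and 90.7 CPM in controls and 77.9, 80.1 and 74.1 CPM in heterozygotes. It fell in all heterozygotes (log2 fold change −0.24, standard error 0.05, adjusted p = 0.00634), with 0.138 in the 12-library fit and 0.000362 to 0.138 over all alternatives.

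Ribosomal protein genes leaned upward. These short transcripts encode the proteins of the cytosolic ribosome. Of 83 tested, 15 were called higher (18.1%, against 2.37% of all genes) and 0 lower, 79 had positive log2 fold changes, and the median was 0.16. Offsets for length and GC content left 4 called and a median of 0.10. The 12-library fit called 0, and 8 were called without control mouse 9, 9 without control mouse 11 and 8 without heterozygous mouse 12. Rpl29 was at 26.3, 28.3 and 31.1 CPM in controls and 38.8, 39.5 and 34.2 CPM in heterozygotes. The groups were apart, with heterozygous mouse 12 lowest of its group (log2 fold change 0.39, standard error 0.08, adjusted p = 0.00461), and the adjusted p was 0.103 in the 12-library fit and 2.53e-05 to 0.103 over all alternatives. Nuclear genes of oxidative phosphorylation, of similar transcript length (median 1.00 kb, against 1.06 kb), had a median log2 fold change of 0.03, and of −0.03 with the offsets.

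Several calcium signalling genes fell, and none of those tested was called higher. They cover release channels of the endoplasmic reticulum, pumps, exchangers and kinases bound by calmodulin. Of 33 tested, 10 were called lower (30.3%, against 2.72% of all genes) and 0 higher, 4 had positive log2 fold changes and the median was −0.12. Every fit without 1 mouse called a number within 1.5 times of this, and the 12-library fit called 5. Ryr3 (ENSMUSG00000057378, chromosome 2, 112631355 to 113217096), a ryanodine receptor that releases stored calcium, was at 49.9, 51.5 and 48.7 CPM in controls and 25.8, 28.5 and 27.8 CPM in heterozygotes. All heterozygotes were far below all controls, which were close together (log2 fold change −0.87, standard error 0.07, adjusted p = 8.79e-08), while the adjusted p was 0.0898 in the 12-library fit and 7.91e-31 to 0.0898 over all alternatives. Atp2a3, a pump that refills the store, was at 299.7, 299.9 and 289 CPM in controls and 183, 214 and 179 CPM in heterozygotes. Heterozygous mouse 10 fell least and was still far below every control (log2 fold change −0.63, standard error 0.06, adjusted p = 7.38e-06). Camkk2, the kinase that activates CaMKI and CaMKIV, was at 291, 308 and 303 CPM in controls and 198, 236 and 209 CPM in heterozygotes. Heterozygous mouse 10 was again highest of its group, with no overlap (log2 fold change −0.49, standard error 0.05, adjusted p = 4.57e-05). Camk1d, a CaMKI isoform, was at 85.6, 100.3 and 98.7 CPM in controls and 56.5, 69.4 and 71.7 CPM in heterozygotes. Control mouse 7 was lowest of the controls and above all heterozygotes (log2 fold change −0.52, standard error 0.09, adjusted p = 0.0111). Itpr1, the most abundant release channel of these cells, overlapped between groups as given above. Calm2, a calmodulin gene and the most abundant member per kilobase, was at 886, 878 and 912 CPM in controls and 834, 846 and 814 CPM in heterozygotes. The groups were apart by a small step and it was not called (log2 fold change −0.10, standard error 0.04, adjusted p = 0.121).

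Some ion channel genes were called, in both directions. Of 77 potassium channel genes tested, 3 were called higher and 9 lower (3.90% and 11.7%, against 2.37% and 2.72% of all genes, median 0.00). Without control mouse 11, 5 were called lower. Without control mouse 7, 5 were called higher, and without heterozygous mouse 8, 6. The 12-library fit called 1 higher and 4 lower. Kcnh7, an ERG-type channel, was at 14.1, 15.4 and 15.4 CPM in controls and 19.3, 20.9 and 21.3 CPM in heterozygotes. The heterozygotes were higher without overlap (log2 fold change 0.45, standard error 0.09, adjusted p = 0.00417), and the 12-library fit gave 0.441 (0.000481 to 0.441 over all alternatives). Kcns1, a silent modifier subunit of low abundance, was at 1.42, 1.09 and 1.12 CPM in controls and 2.68, 2.93 and 3.06 CPM in heterozygotes. Every heterozygote was above every control (log2 fold change 1.26, standard error 0.25, adjusted p = 0.00382).

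Some sodium channel subunits fell. Of 9 tested, 3 were called lower (33.3%, against 2.72% of all genes) and 0 higher (median −0.16), 1 higher without heterozygous mouse 8, and 1 lower in the 12-library fit. Scn1a, the pore of Nav1.1 channels in fast-firing neurons, was at 311, 308 and 314 CPM in controls and 248, 242 and 249.5 CPM in heterozygotes. Both groups were tight and wide apart (log2 fold change −0.33, standard error 0.04, adjusted p = 1.74e-05). Among 24 calcium channel genes, 3 were called higher (12.5%, against 2.37%) and 0 lower, while 14 had negative log2 fold changes (median −0.01), 1 was called lower without heterozygous mouse 8, and 0 in the 12-library fit. Cacna1d, the pore of Cav1.3 channels, was at 85.3, 80.6 and 81.8 CPM in controls and 96.1, 100.2 and 102 CPM in heterozygotes. All heterozygotes were above all controls by a small step (log2 fold change 0.27, standard error 0.05, adjusted p = 0.00206), and the 12-library fit gave 0.148 (3.16e-05 to 0.148 over all alternatives). Cacnb3, an auxiliary subunit, was at 45.1, 46.0 and 46.5 CPM in controls and 52.7, 56.8 and 56.6 CPM in heterozygotes. The groups did not overlap (log2 fold change 0.27, standard error 0.06, adjusted p = 0.00733), with 0.0817 in the 12-library fit and 0.000929 to 0.0817 over all alternatives.

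Some enzymes of cyclic nucleotide signalling were called, most of them lower. Of 29 adenylyl cyclases and phosphodiesterases tested, 1 was called higher and 5 lower (3.45% and 17.2%, against 2.37% and 2.72% of all genes), with a median of −0.05 and the same counts within 1.5 times in every fit without 1 mouse. Adcy1, the calmodulin-stimulated cyclase that granule cells express strongly, was at 2473, 2472 and 2508 CPM in controls and 1906, 2074 and 2032 CPM in heterozygotes. All heterozygotes were lower (log2 fold change −0.31, standard error 0.04, adjusted p = 4.60e-05). Adcy8, a second cyclase driven by calmodulin, was at 32.6, 32.6 and 35.0 CPM in controls and 25.8, 23.8 and 26.5 CPM in heterozygotes. It was lower in each heterozygote than in any control (log2 fold change −0.40, standard error 0.07, adjusted p = 0.00250). Pde5a, which degrades cyclic GMP in Purkinje cells, was at 141, 137 and 142 CPM in controls and 104, 102 and 99.6 CPM in heterozygotes. The gap between the groups was many times the spread within them (log2 fold change −0.46, standard error 0.04, adjusted p = 2.60e-06). Pde1b, a calmodulin-driven phosphodiesterase, was at 34.6, 29.4 and 26.02 CPM in controls and 48.4, 42.0 and 50.4 CPM in heterozygotes. It went the other way, above all controls in all heterozygotes (log2 fold change 0.65, standard error 0.10, adjusted p = 0.00125). Nos1, neuronal nitric oxide synthase, was at 201, 208 and 197 CPM in controls and 248, 256 and 304 CPM in heterozygotes. No control overlapped, and mouse 12 was highest of the heterozygotes (log2 fold change 0.41, standard error 0.07, adjusted p = 0.00508).

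**Figure D3:**
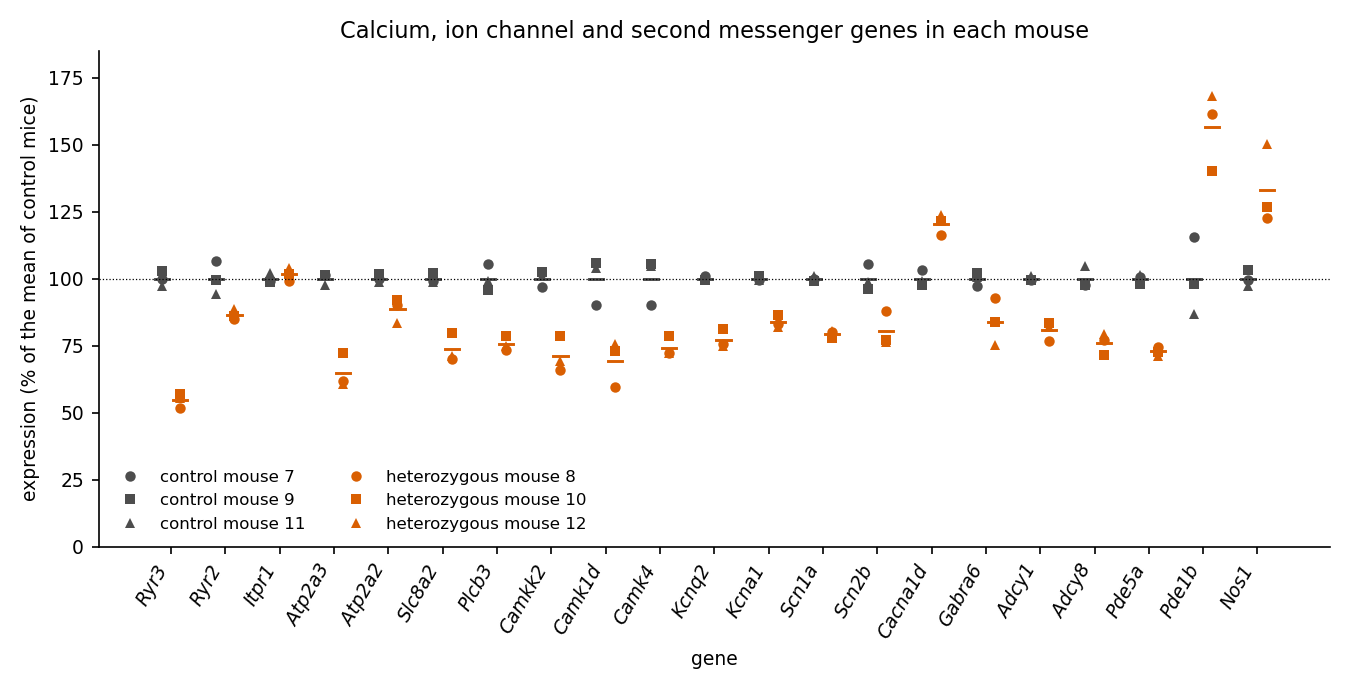
Expression of calcium, ion channel and second messenger genes as percent of the control mean, with 1 point for each of 3 control (grey) and 3 heterozygous (orange) mice and bars at group means. Most heterozygous points lie below 100, as for Ryr3 (log2 fold change −0.87), while Cacna1d (0.27), Pde1b (0.65) and Nos1 (0.41) lie above.

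Receptor genes of synapses were called lower or not at all with all 6 mice. Among 14 GABA-A receptor genes 2 were called lower (14.3%, against 2.72% of all genes) and 0 higher (median −0.02), and 0 in the 12-library fit. Gabra6, the alpha subunit of granule cells, was at 741, 777 and 764 CPM in controls and 706, 636 and 572 CPM in heterozygotes. Heterozygous mouse 8 was close to the controls and mouse 12 far below (log2 fold change −0.25, standard error 0.06, adjusted p = 0.0425). Its call was lost without any mouse but heterozygous mouse 8, as without heterozygous mouse 10 (0.153, and 1.65e-07 to 0.311 over all alternatives), which left 1 call. Of 18 ionotropic glutamate receptor genes 3 were called lower (16.7%) and 0 higher (median 0.01), and 0 were called without control mouse 11 or in the 12-library fit. Grik1, a kainate receptor, was at 20.5, 22.1 and 21.8 CPM in controls and 15.1, 17.5 and 16.1 CPM in heterozygotes. The heterozygotes were lower without overlap (log2 fold change −0.40, standard error 0.09, adjusted p = 0.00907), though leaving out control mouse 11 gave 0.0576 (0.00180 to 0.0703 over all alternatives). Of 7 metabotropic receptor genes 0 were called with edgeR, where 2 had an unadjusted p under 0.05. DESeq2 called 1 lower, and edgeR 1 lower without heterozygous mouse 10 or without heterozygous mouse 12. With offsets for length and GC content 1 was called lower. Grm4, the presynaptic receptor of granule cells and the most abundant of these per kilobase, was at 500.3, 543 and 516 CPM in controls and 415, 479 and 384 CPM in heterozygotes. Its groups were apart without a call (log2 fold change −0.29, standard error 0.08, adjusted p = 0.0762).

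Among 15 postsynaptic scaffold genes 1 was called higher and 2 lower (6.67% and 13.3%, against 2.37% and 2.72% of all genes, median −0.12), 2 higher without heterozygous mouse 10 or heterozygous mouse 12, and 0 lower in the 12-library fit. Dlgap3, a scaffold linked to Shank proteins, was at 109, 109.6 and 118 CPM in controls and 126, 143 and 137 CPM in heterozygotes. It rose in all heterozygotes (log2 fold change 0.27, standard error 0.05, adjusted p = 0.00301), with 0.125 in the 12-library fit and 3.41e-06 to 0.125 over all alternatives. Homer3, the Homer of Purkinje cell spines, was at 263, 259 and 264 CPM in controls and 215, 224 and 222 CPM in heterozygotes. All heterozygotes were lower (log2 fold change −0.25, standard error 0.04, adjusted p = 0.000622), with 0.225 and 2.10e-06 to 0.225 in the same places. Immediate early genes, which report recent activity, leaned downward. Of 16 tested 2 were called lower (12.5%) and 0 higher, 2 had positive log2 fold changes and the median was −0.44. Leaving out heterozygous mouse 8 gave 6 calls, and leaving out control mouse 7 or control mouse 11 gave 1. DESeq2 called 4 and edgeR without the filter 7. Arc, which trims receptors at active synapses, was at 17.9, 20.8 and 16.1 CPM in controls and 14.1, 12.7 and 12.3 CPM in heterozygotes. Control mouse 9 was highest and no heterozygote reached a control (log2 fold change −0.49, standard error 0.11, adjusted p = 0.00918), though without that control the adjusted p was 0.0783 (0.000425 to 0.0783 over all alternatives).

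Large rises outside these lists were found in genes of varied function. Gpr26 (ENSMUSG00000040125, chromosome 7, 131966460 to 131994405), an orphan receptor coupled to G proteins, was at 9.69, 8.31 and 8.42 CPM in controls and 23.9, 24.9 and 20.7 CPM in heterozygotes. All heterozygotes were far above any control (log2 fold change 1.39, standard error 0.11, adjusted p = 8.79e-08). Fam129a, a protein induced by stress of the endoplasmic reticulum, was at 2.64, 3.13 and 3.62 CPM in controls and 8.75, 8.47 and 10.0 CPM in heterozygotes. The groups were far apart (log2 fold change 1.53, standard error 0.16, adjusted p = 6.71e-06). Sema5b, a guidance protein that limits synapse number, was at 5.49, 3.71 and 4.49 CPM in controls and 10.9, 9.77 and 14.3 CPM in heterozygotes. Heterozygous mouse 12 was highest and all controls were lower (log2 fold change 1.36, standard error 0.17, adjusted p = 6.33e-05). Hrk, a BH3 protein of neuronal death, was at 9.96, 10.6 and 8.24 CPM in controls and 20.1, 16.4 and 25.8 CPM in heterozygotes. Heterozygous mouse 10 was lowest of its group and above all controls (log2 fold change 1.12, standard error 0.16, adjusted p = 0.00133). Lhfpl5, a membrane protein of hair cells, was at 2.51, 2.69 and 3.12 CPM in controls and 6.07, 5.08 and 5.94 CPM in heterozygotes. The heterozygotes were close together and above all controls (log2 fold change 1.04, standard error 0.18, adjusted p = 0.00141).

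Large falls were found in genes of varied function. Ltbp2 (ENSMUSG00000002020, chromosome 12, 84783212 to 84876532), a matrix protein related to the binders of latent TGF-beta, was at 96.0, 108 and 102 CPM in controls and 57.5, 58.2 and 53.4 CPM in heterozygotes. It had the smallest adjusted p of all genes tested, and all heterozygotes were far below all controls (log2 fold change −0.86, standard error 0.06, adjusted p = 3.71e-08). Clstn2, a calsyntenin of the postsynaptic membrane named for its difference from the spinal cord, was at 84.2, 85.5 and 93.0 CPM in controls and 53.01, 57.3 and 52.6 CPM in heterozygotes. All heterozygotes were far below all controls (log2 fold change −0.69, standard error 0.06, adjusted p = 2.19e-07). Chst8, which sulfates N-linked sugars, was at 14.8, 14.1 and 15.3 CPM in controls and 6.64, 6.91 and 7.02 CPM in heterozygotes. Each heterozygote was far below any control, with little spread (log2 fold change −1.10, standard error 0.12, adjusted p = 6.71e-06). Car9, a carbonic anhydrase of the cell surface, was at 9.15, 9.59 and 7.80 CPM in controls and 4.80, 4.24 and 3.90 CPM in heterozygotes. The fall was of similar size with low expression (log2 fold change −1.04, standard error 0.15, adjusted p = 0.000276). Sstr3, the somatostatin receptor of neuronal cilia, was at 18.6, 15.7 and 16.97 CPM in controls and 8.89, 11.7 and 7.32 CPM in heterozygotes. Heterozygous mouse 10 was closest to the controls (log2 fold change −0.88, standard error 0.14, adjusted p = 0.00111). Sycp1, a meiotic protein, was at 25.1, 23.7 and 24.9 CPM in controls and 13.1, 14.5 and 13.5 CPM in heterozygotes. Both groups were tight (log2 fold change −0.84, standard error 0.09, adjusted p = 5.83e-06). Myo15, an unconventional myosin, was at 10.4, 10.2 and 11.6 CPM in controls and 4.73, 6.84 and 2.82 CPM in heterozygotes. Its heterozygotes were scattered but all lower (log2 fold change −1.17, standard error 0.24, adjusted p = 0.0181). The call was lost without control mouse 7, 9 or 11 or heterozygous mouse 8. The adjusted p was 0.106 without heterozygous mouse 8 and 1.85e-11 to 0.106 over all alternatives.

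By difference in CPM, the largest falls included abundant noncoding RNAs. Meg3, an imprinted long noncoding RNA of neurons, was at 3453, 3724 and 3737 CPM in controls and 2741, 3031 and 3046 CPM in heterozygotes. All heterozygotes were lower (log2 fold change −0.31, standard error 0.04, adjusted p = 0.000303), but the adjusted p was 0.731 in the 12-library fit and 2.99e-12 to 0.731 over all alternatives. Snhg11, a neuronal host of small nucleolar RNAs, was at 2971, 3051 and 3149.8 CPM in controls and 2524, 2602 and 2543 CPM in heterozygotes. Its groups were apart (log2 fold change −0.26, standard error 0.04, adjusted p = 0.000211), with 0.714 in the 12-library fit and 1.84e-10 to 0.714 over all alternatives. Rgs8, a regulator of G protein signalling in Purkinje cells, was at 1328, 1321 and 1404 CPM in controls and 889, 969.8 and 871 CPM in heterozygotes. It was lower in each heterozygote than in any control, mouse 10 least (log2 fold change −0.57, standard error 0.04, adjusted p = 8.79e-08). Eif5, which helps select start codons, was at 373, 399 and 362 CPM in controls and 449, 453 and 432 CPM in heterozygotes. All heterozygotes were above all controls (log2 fold change 0.23, standard error 0.04, adjusted p = 0.00199), with 0.152 in the 12-library fit and 6.35e-06 to 0.152 over all alternatives.

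Markers of Purkinje cells and of interneurons were called in both directions, and those of granule cells lower or not at all with all 6 mice. Of 16 Purkinje markers 3 were called higher and 3 lower (18.8% each, against 2.37% and 2.72% of all genes, median 0.07), 1 higher without control mouse 7, control mouse 9 or heterozygous mouse 10, and 0 higher and 1 lower in the 12-library fit. Lhx1, a transcription factor of these cells, was at 77.9, 76.6 and 83.5 CPM in controls and 90.3, 97.1 and 95.5 CPM in heterozygotes. It was higher in all heterozygotes (log2 fold change 0.25, standard error 0.05, adjusted p = 0.00557), with 0.0508 in the 12-library fit and 0.000216 to 0.0508 over all alternatives. Ppp1r17, a phosphatase inhibitor of Purkinje cells, was at 205, 223 and 222 CPM in controls and 175, 189 and 165 CPM in heterozygotes. It was lower in all heterozygotes (log2 fold change −0.30, standard error 0.05, adjusted p = 0.00128), with 0.233 and 9.52e-09 to 0.233 in the same places. Of 12 granule cell markers 3 were called lower (25%) and 0 higher (median −0.04), 1 higher without heterozygous mouse 12, and 1 lower in the 12-library fit. Rbfox3, the NeuN antigen, was at 432, 449 and 433 CPM in controls and 339, 388 and 336 CPM in heterozygotes. All heterozygotes were below all controls (log2 fold change −0.31, standard error 0.05, adjusted p = 0.000914). Of 10 markers of interneurons and unipolar brush cells 1 was called higher and 1 lower (10% each, median 0.04), 0 lower without control mouse 7 and 2 without heterozygous mouse 8. Nxph1, a neurexin ligand, was at 15.2, 15.1 and 14.8 CPM in controls and 20.2, 20.5 and 21.8 CPM in heterozygotes. The heterozygotes were higher without overlap (log2 fold change 0.47, standard error 0.09, adjusted p = 0.00269).

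Markers of other cell types were mostly not called, and those of the choroid plexus differed between control mice. Oligodendrocyte and myelin genes had 1 call lower and 0 higher of 13 (7.69%, against 2.72% of all genes, median −0.10), and 2 lower without heterozygous mouse 8 or control mouse 9. Ermn, a late myelin gene, was at 67.9, 77.4 and 76.3 CPM in controls and 61.1, 58.1 and 52.9 CPM in heterozygotes. The heterozygotes were all lower (log2 fold change −0.37, standard error 0.06, adjusted p = 0.00148), with 0.30 in the 12-library fit and 3.65e-08 to 0.30 over all alternatives. Of 4 precursor markers 0 were called with edgeR or DESeq2 (1 with an unadjusted p under 0.05, and 1 called lower without heterozygous mouse 8), and Pdgfra, a growth factor receptor, overlapped (30.4, 29.7 and 32.5 against 30.3, 29.3 and 29.9 CPM). Endothelial and mural markers had 0 calls of 14 with edgeR or DESeq2 (1 with an unadjusted p under 0.05, median −0.09), and Slc2a1, the glucose transporter of vessels, overlapped (163, 144 and 163 against 135, 156 and 146 CPM). Of 7 meningeal markers 1 was called higher (14.3%, against 2.37%, median 0.07), and 0 without control mouse 9, control mouse 11 or heterozygous mouse 12. Of 9 choroid plexus markers 0 were called with edgeR or DESeq2 or had an unadjusted p under 0.05, against 2 called higher without the filter and 3 without control mouse 7. Their sums were 2015, 684 and 1157 CPM in controls and 1881, 1993 and 2149 CPM in heterozygotes, most of it from Ttr, with control mouse 9 lowest. Of 5 blood genes 0 were called with edgeR or DESeq2 or had an unadjusted p under 0.05 (median −0.29), and Hbb-bs, a globin, was at 31.4, 46.3 and 39.2 against 32.0, 26.3 and 37.0 CPM with overlap. Of 3 brainstem and midbrain markers tested 1 was called lower without heterozygous mouse 10 alone, and 1 was called higher, which became 0 without control mouse 11. The higher gene was Slc17a6, a glutamate transporter of deep nuclei and brainstem, at 22.2, 21.4 and 19.0 against 28.4, 25.7 and 26.7 CPM, all heterozygotes above all controls (log2 fold change 0.37, standard error 0.08, adjusted p = 0.00944, 0.0787 without control mouse 11, 0.00112 to 0.0787 over all alternatives).

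Genes linked to ALS, FTD or hereditary ataxia were mostly not called. Of 23 ALS and FTD genes tested 1 was called higher and 2 lower (4.35% and 8.70%, against 2.37% and 2.72% of all genes, median −0.02). Grn, the lysosomal progranulin of FTD, was at 40.9, 43.3 and 41.3 CPM in controls and 50.3, 46.8 and 49.8 CPM in heterozygotes. The groups were apart by a small step (log2 fold change 0.23, standard error 0.06, adjusted p = 0.0300), and the call was lost without any mouse but heterozygous mouse 10, as without control mouse 11 (0.125, and 0.0161 to 0.224 over all alternatives). Kif5a, a kinesin of axonal transport, was at 849, 922 and 918 CPM in controls and 729, 748 and 759 CPM in heterozygotes. All heterozygotes were lower (log2 fold change −0.27, standard error 0.04, adjusted p = 0.000379), with 0.0744 in the 12-library fit and 2.24e-08 to 0.0744 over all alternatives. Of 23 ataxia genes 2 were called lower (8.70%) and 0 higher (median −0.04), 1 without control mouse 11. Cytoskeletal genes of neurons had 1 call lower of 16 (6.25%, median −0.09), 0 without heterozygous mouse 8 and 2 without heterozygous mouse 10. Genes of axonal injury had 1 call higher of 6 (16.7%, median 0.10), which was Atf3, and 0 without control mouse 7, 9 or 11 or heterozygous mouse 12. Gap43, a protein of growing axons, overlapped (103, 111 and 102 against 106, 102 and 108 CPM).

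The RNA of the Rosa26 locus was called lower, and Thy1 was not called. Thy1, whose promoter drives Cre, was at 226, 235 and 245 CPM in controls and 249, 258 and 256 CPM in heterozygotes. The groups were apart by a small step (log2 fold change 0.11, standard error 0.04, adjusted p = 0.121). Gt(ROSA)26Sor, the noncoding RNA of the locus that holds the construct in both genotypes, was at 42.8, 39.9 and 41.4 CPM in controls and 38.4, 30.8 and 34.1 CPM in heterozygotes. All heterozygotes were lower (log2 fold change −0.27, standard error 0.08, adjusted p = 0.0411), and the call was lost without any mouse but heterozygous mouse 8, as without heterozygous mouse 10 (0.177, and at most 0.396 over all alternatives). A list was made of genes the paper names for sequencing or quantitative PCR in any tissue or at any age. Of its 12 tested members, 3 were called higher and 7 lower (25% and 58.3%, against 2.37% and 2.72% of all genes). The paper picked Camk4, Grin2a, Kcnj9, Rims3, Syt2 and Unc13a as lowered in these same libraries. Calls of these genes are therefore no independent result. DESeq2 called 5 higher, and the 12-library fit called 2 lower. The list leaves out Atf5 and Chac1, which the paper also names and which were called higher here.

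**Figure D4:**
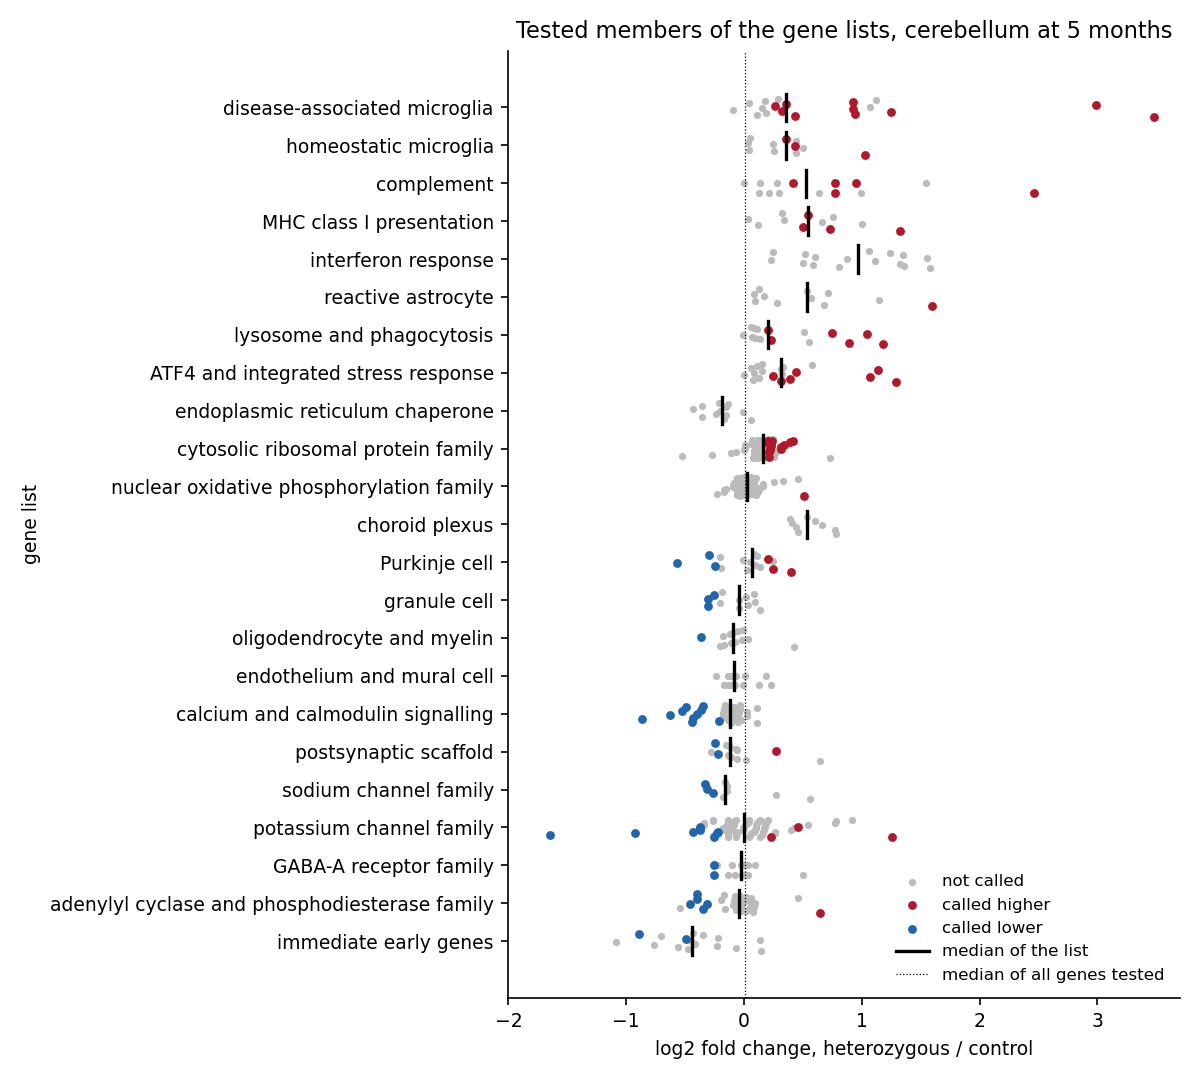
Log2 fold changes (heterozygous over control, n = 3 mice per group) of the tested members of 23 gene lists, 1 point per gene with a black bar at each list's median and a dotted line at the median of all genes tested. Medians of interferon (0.97), MHC class I (0.55), complement (0.53), reactive astrocyte (0.53) and choroid plexus genes (0.54) lie above the rest, though those of interferon and reactive astrocyte genes come to 0.27 and 0.32 without heterozygous mouse 12, and that of choroid plexus genes to 0.28 without control mouse 9 and 1.03 without control mouse 7. That of immediate early genes (−0.44) is the lowest.

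Most of the genes called at 5 months leaned the same way at 2 months. Of the genes called higher at 5 months, 317 of 383 tested at 2 months had positive log2 fold changes, and of those called lower 80 of 447 did, against 8303 of 16051 over all genes. At an unadjusted p under 0.05 at 2 months, 90 were higher and 172 lower in the same direction, against 392 higher and 439 lower of the 16051. At 2 months 0 genes were called with edgeR, and 836 had an unadjusted p under 0.05. Without control mouse 1, an alternative chosen after the data were seen, 167 were called higher and 195 lower there. The test of genotype by age called 0 of 16845 genes (0%), with 646 at an unadjusted p under 0.05. DESeq2 called 4 in that test, edgeR without the filter 3, and edgeR without 2-month control mouse 1 called 3. B2m had a log2 fold change of −0.06 at 2 months (difference 0.79, adjusted p = 0.459) and Mpeg1 of 0.03 (difference 1.15, adjusted p = 0.922). Gpr26 had 1.16 at 2 months beside 1.39 at 5 months, Ltbp2 −0.66 beside −0.86, and Chac1 1.31 beside 1.13.

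Some of the genes called higher were also called higher in the spinal cord at 6 months. Counts of the cerebellum and of the 6-month tissues were deposited in separate count tables. Tissue, age and count table cannot be told apart in comparisons between them. Of 18 genes called higher in the spinal cord (0.103% of 17522 tested), 9 were called higher in the cerebellum, which is 50% of the 18 and 2.30% of the 391, while 2.37% of all genes tested were called higher in the cerebellum. Another 7 were tested there and not called, and 2 were not tested there. The 9 were the stress factor Atf4, the complement genes C1qb and C1qc, and the myeloid genes Clec7a, Csf3r, Ctss, Fcrls, Trem2 and Tyrobp. The test of genotype by tissue called 28 of 17938 genes (0.156%), 12 with a more positive change in the cerebellum and 16 with a more negative one. That count was 9 without heterozygous mouse 12, 10 without control mouse 9, 12 without control mouse 11, 14 without control mouse 7, and 403 without heterozygous spinal cord mouse 1. It was 18, 10, 11 and 15 without control spinal cord mice 1 and 2 and heterozygous spinal cord mice 2 and 3. DESeq2 called 119 and edgeR without the filter 104. Gpr26 rose by 1.39 in the cerebellum and had 0.22 in the spinal cord (difference 1.17, adjusted p = 0.000401). Sema5b, at 1.36 and −0.28, was called in the same way (difference 1.63, adjusted p = 0.000782). Ryr3 (−0.80, adjusted p = 0.000401), Clstn2 (−0.87, adjusted p = 0.000401) and Opn3 (−2.23, adjusted p = 0.000900), an opsin of the brain, had more negative changes in the cerebellum.

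No immune gene was among the 6 genes called higher in the cortex at 6 months. Of 6 genes called higher in the cortex (16744 tested), 1 was called higher in the cerebellum, a clone-named gene (16.7% of the 6 and 0.256% of the 391). Another 1 was not tested there. Of all genes tested in the cerebellum 2.37% were called higher. The test against the cortex called 16 of 17722 genes (0.0903%), 5 more positive and 11 more negative in the cerebellum. The count was 5 without control mouse 7, 7 without heterozygous mouse 8 or control mouse 9, and 6 without control mouse 11 or heterozygous mouse 12. Leaving out control cortex mice 1, 2 and 3 gave 157, 72 and 120, and leaving out heterozygous cortex mice 1, 2 and 3 gave 9, 6 and 6. DESeq2 called 161 and edgeR without the filter 102. Ctss had −0.44 in the cortex beside 0.89 in the cerebellum (difference 1.32, adjusted p = 0.00582). Serpina3n (2.05, adjusted p = 0.0100), Lyz2 (1.55, adjusted p = 0.0467) and Mpeg1 (1.25, adjusted p = 0.0467) differed in the same way. Lmtk3, a membrane kinase (−1.39, adjusted p = 0.000116), Mbd6, a chromatin protein (−1.44, adjusted p = 0.000439), and Peg10, an imprinted gene (−1.38, adjusted p = 0.00582), had positive values in the cortex and were not called in the cerebellum. Atf5 was positive in all 4 comparisons, at 1.07, 0.94, 0.34 and 0.87 (cerebellum at 5 and 2 months, spinal cord, cortex), but was called in the 5-month cerebellum alone. Its rise there was larger than in the spinal cord (difference 0.71, adjusted p = 0.0443).

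**Figure D5:**
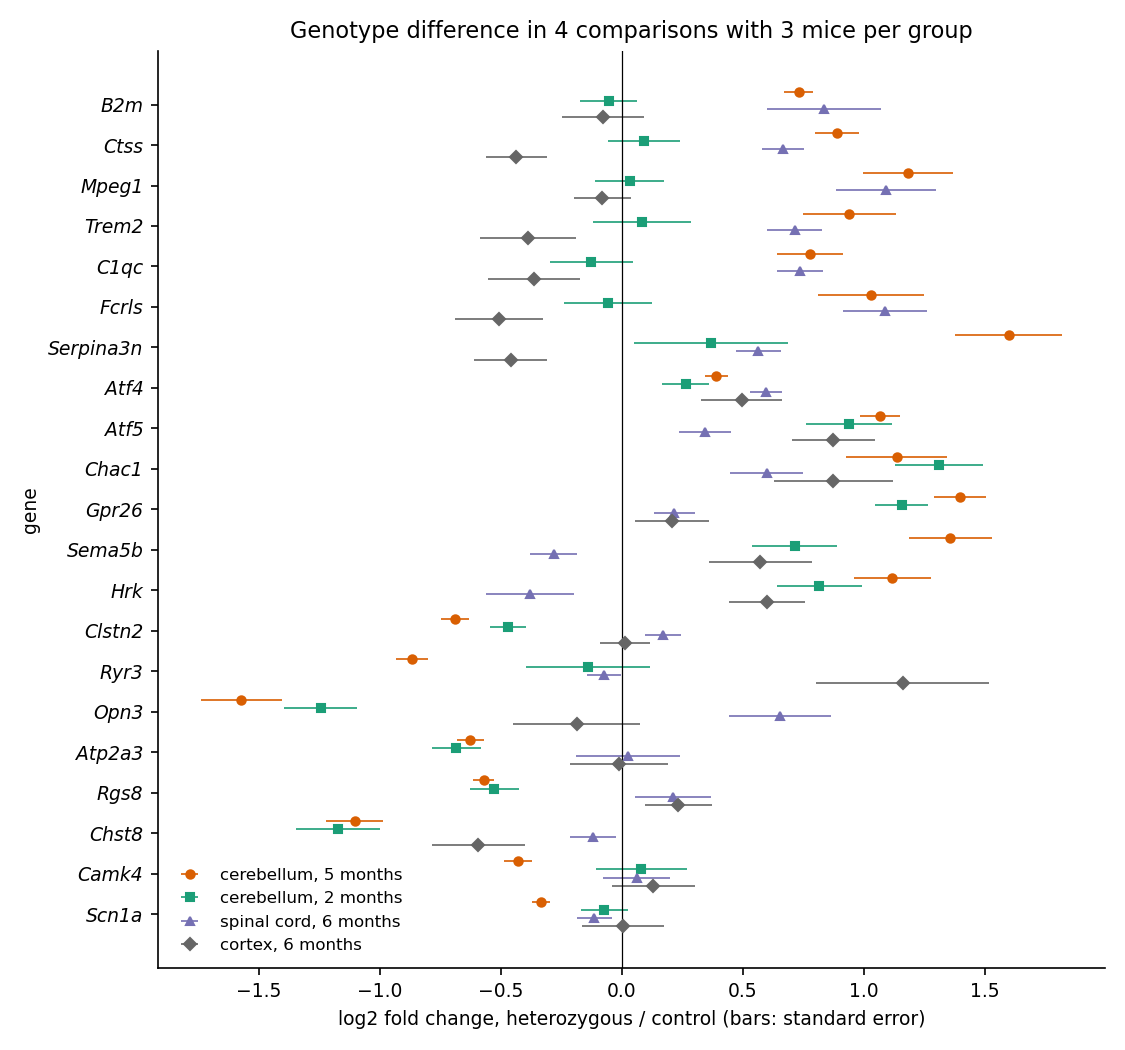
Log2 fold changes (heterozygous over control, n = 3 mice per group, bars are standard errors) of 21 genes in the cerebellum at 5 and 2 months and in the spinal cord and cortex at 6 months, 1 point per comparison. B2m is high in the 5-month cerebellum (0.73) and in the spinal cord (0.83), where it was not called. It is near 0 at 2 months (−0.06) and in the cortex (−0.08), while Gpr26 is high in the cerebellum at both ages (1.39 and 1.16).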

How the data were processed

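RNA was sequenced from the cerebellum of 3 control and 3 heterozygous mice at 5 months, and for comparison from 6 cerebellum libraries at 2 months and 6 each of spinal cord and cortex at 6 months. The authors deposited raw counts per gene and library, which the submitters' processing notes describe as made with Trimmomatic 0.30, HISAT2 2.0.1 on mm10 and HTSeq 0.6.1. The HTSeq mode, strand setting and Ensembl release were not stated. GENCODE M21 gave the position, transcript length and GC content of each gene. Reads counted on genes ranged from 13980415 to 16327811 per mouse at 5 months.

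Genes were tested in edgeR 4.0.16 (R 4.3.3) with TMM normalization, filterByExpr (minimum count 10, minimum total 15) and the robust quasi-likelihood F test. Adjusted p values are Benjamini-Hochberg values over all genes tested, from this test unless another is named. Calls needed an adjusted p below 0.05 together with a log2 fold change larger than 0.2 in either direction. Differences between ages and tissues were interaction terms over 12 libraries, called by adjusted p alone. The common biological coefficient of variation was 0.0563. These steps were tested on simulated data holding 200 genes with known changes.

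Alternatives were DESeq2 1.42.0, its size factors in edgeR, no filter, no fold change threshold, non-robust dispersions, loess offsets for length and GC content (span 0.4), TMM without ribosomal protein and mitochondrial genes, 1 fit of all 12 cerebellum libraries, and leaving out each library in turn. The 2-month comparison without control mouse 1 was chosen after seeing the data. Genes were named by rule. 1 rule took genes the paper names for sequencing or quantitative PCR, without Atf5 and Chac1, which entered under other rules. Another took, in each direction, the 12 called genes with the largest change (mean of at least 5 CPM in the higher group, groups apart). It also took the 5 with the largest CPM difference. The others took from each list up to 4 called members and the most abundant per kilobase, and the 5 leading genes of each interaction. Part of them are described. The 47 gene lists, written from general knowledge, and their members were chosen with earlier results of these data known. Lists were described by counts and medians and not tested. Promoters came from RefSeq tables, searched on both strands. Tables and figures were made with Python 3.11.15, pandas 2.3.3, numpy 2.4.6 and matplotlib 3.10.9.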

Additional observations from a re-analysis of the deposited data

Results flagged for a closer look

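The genotype difference of 28 genes differed between the cerebellum at 5 months and the spinal cord. The differences of log2 fold changes, cerebellum minus spinal cord, of the 5 with the smallest adjusted p were −0.87 in Clstn2, 1.17 in Gpr26, −0.80 in Ryr3, 1.63 in Sema5b and −2.23 in Opn3. Between the cerebellum at 5 months and the cortex 16 genes differed. Their leading 5 had differences of −1.39 in Lmtk3, −1.44 in Mbd6, 1.32 in Ctss, −1.38 in Peg10 and −1.74 in Kmt2d, a histone methyltransferase. The cause of these differences was not tested, and tissue, age and count table cannot be told apart in them.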

How the results depend on the processing

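No paired analysis was possible because control and heterozygous cerebellum mice carry different numbers in the labels. The count of genes higher in heterozygous cerebellum at 5 months was 391, and it moved to 241 with DESeq2, to 591 with no filter on low counts and to 104 with all 12 cerebellum libraries in 1 fit. Leaving out each mouse in turn it was lowest at 163 without control mouse 11 and highest at 474 without heterozygous mouse 8. The count of genes lower was 448, and it moved to 121 with all 12 libraries in 1 fit. It was lowest at 270 without control mouse 11 and highest at 548 without heterozygous mouse 8.

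The count of genes whose genotype difference differs between 5 and 2 months was 0, 4 with DESeq2 and 3 with no filter. It was lowest at 0 and highest at 3, without 2-month control mouse 1. Against the spinal cord the count was 28, 119 with DESeq2 and 104 with no filter, lowest at 9 without heterozygous mouse 12 and highest at 403 without heterozygous spinal cord mouse 1. Against the cortex it was 16, 161 with DESeq2 and 102 with no filter, lowest at 5 without control mouse 7 and highest at 157 without control cortex mouse 1. At 2 months the counts of 0 higher and 0 lower became 167 and 195 without control mouse 1, an alternative chosen after the data were seen. The cause was not tested for those that moved.

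Of 161 named genes tested, 119 were called at 5 months. Of these 46 were called in the same direction under every alternative and 77 in all 6 fits without 1 mouse, and 0 of the 161 reversed. The alternative that weakened the most named genes was the fit of 12 libraries (64), and leaving out control mouse 11 weakened 31. Of 1316 list counts compared, 1132 stayed within 1.5 times or were equal, and of 611 list medians 558 stayed within 1 SD and 29 changed sign.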

Other observations

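Calls among metabolic and maintenance genes numbered 0 to 3 in each list. Of 13 protein-coding mitochondrial genes 0 were called with edgeR or DESeq2 (2 with an unadjusted p under 0.05, median log2 fold change 0.06), and mt-Co1, a subunit of cytochrome oxidase, overlapped between groups (16836, 17427 and 17138 against 16886, 17618 and 16693 CPM). The mitochondrial ribosomal RNAs lie outside that list and were called lower. Of these mt-Rnr2 was at 2994, 3145 and 2877 CPM in controls and 2705, 2527 and 2464 CPM in heterozygotes (log2 fold change −0.23, standard error 0.04, adjusted p = 0.00264), and its call was lost without control mouse 9 (log2 fold change −0.19) and in the 12-library fit (adjusted p = 0.243, 1.07e-06 to 0.243 over all alternatives). The other, mt-Rnr1, was chosen after its values were seen (log2 fold change −0.30, standard error 0.04, adjusted p = 0.000111, with 0.127 in the 12-library fit and 3.66e-11 to 0.127 over all alternatives). Of 73 nuclear genes of oxidative phosphorylation 1 was called higher (1.37%, against 2.37% of all genes) and 0 lower (median 0.03), and with offsets for length and GC content 0 higher and 2 lower (median −0.03). The 1 higher call was also lost without control mouse 7, control mouse 11, heterozygous mouse 8 or heterozygous mouse 12, and became 2 without heterozygous mouse 10. Of 37 proteasome genes 2 were called higher (5.41%, against 2.37% of all genes, median 0.06), 1 without control mouse 7, control mouse 9 or heterozygous mouse 10, and 0 without control mouse 11 or heterozygous mouse 12. These were Psmb8 and Psmb10, subunits of the immunoproteasome that are also counted among the MHC class I calls. Of 66 heat shock genes 3 were called lower (4.55%, against 2.72% of all genes, median −0.01), 6 without heterozygous mouse 8, 1 without heterozygous mouse 10, control mouse 11 or heterozygous mouse 12, and 0 in the 12-library fit. Hspa12a, an atypical member of the Hsp70 family, was at 151, 159 and 165 CPM in controls and 135, 134 and 130.3 CPM in heterozygotes. All heterozygotes were lower (log2 fold change −0.25, standard error 0.05, adjusted p = 0.00193), with 0.0788 in the 12-library fit and 9.75e-06 to 0.0788 over all alternatives.

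Nucleolar genes, which poly-PR meets in cells, had 0 calls of 15 with edgeR or DESeq2 (3 with an unadjusted p under 0.05, median 0.08), and 1 without control mouse 9. Offsets for length and GC content gave 1 call higher and a median of 0.04. Npm1, a nucleolar chaperone, was at 90.1, 96.2 and 96.0 against 102, 97.9 and 103 CPM. Genes of cholesterol synthesis had 0 calls of 15 with edgeR or DESeq2 (2 with an unadjusted p under 0.05, median 0.06). Those of the glucocorticoid response had 0 of 10 with either tool and 0 with an unadjusted p under 0.05 (median 0.03). Of 15 clock genes 1 was called higher (6.67%, against 2.37% of all genes, median 0.05), 0 without control mouse 7, heterozygous mouse 10 or heterozygous mouse 12, 2 without control mouse 9, and 3 higher and 1 lower without heterozygous mouse 8.

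With 3 mice per group, small changes can be missed. Cell types were read from markers in bulk RNA, and no cell counts or protein levels were analysed here. Housing, litter and dissection are not in the labels, and an uneven choroid plexus content was seen among control mice. Cre and poly-PR cannot be told apart. Strand and overlap settings of the counting are unknown. Levels of transgene RNA were not analysed here. Many single calls depended on 1 mouse.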
